A study of Mus musculus with 2 samples.

Results

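The cell cycle and mitotic genes are a set of 48 genes chosen by name: genes of DNA replication, of mitosis, the cyclins and their kinases, 2 proliferation markers, 2 E2F transcription factors, and the partner genes Brca1 and Bard1. Of the 48, 47 were matched to a probe set annotated with 1 gene symbol, out of 19938 genes matched in this way. The member without a match was Ccnb1, the gene of cyclin B1, for which no value is given. Where a gene had several probe sets, the probe set with the highest mean over both arrays was used.

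The RNA came from cortical thymic epithelial cells (cTECs), the stromal cells that position and select immature thymocytes in the outer thymus. It was measured on 2 Affymetrix arrays, 1 per group, and both groups were NOD mice, a strain prone to autoimmune diabetes, at day 7. The group labelled Tg (genotype Aire transgenic) carried Aire, the transcriptional regulator of medullary epithelium, under the promoter of β5t (Psmb11), a thymoproteasome gene used by the cortex alone, in what the submitters call a semi-knockin strain. The group labelled non-Tg (genotype control) served as the comparison. The source labels name 7 Tg and 5 non-Tg, read here as the animals pooled for each array. With 1 array per group there was no replicate error and no test, so every difference below describes this pair of arrays.

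A dividing cell first licenses its replication origins with the MCM helicase, then copies its DNA under cyclin E and cyclin A with their kinases, and finally separates its chromosomes under cyclin B with the Aurora and Polo-like kinases. Genes of the replication step are classically switched on by E2F factors late in G1. Genes of mitosis are held back until G2 by the DREAM complex and then activated by B-MYB and FOXM1 together with NF-Y. In the young thymus both epithelial cells and thymocytes divide, so RNA of these genes can come from either.

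The values are log2 levels as deposited, and a log2 ratio is Tg minus non-Tg. Where levels are given as a pair, the Tg value stands first. Levels below the 25th percentile of all values, 4.80, were raised to that floor before a ratio was taken. A gene passed the filter if it reached the median of an array on either of them (5.43 in the Tg group and 5.45 in the control), as 11422 genes did. The only spread available was an SD of 0.302 for the log2 ratio of 1 probe set, estimated from 658 genes with 2 probe sets past the filter. It reads the same RNA on the same array, so variation between animals, pools and amplifications is missing from it.

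Aire was higher on the Tg array, at 7.33 against 6.06 (log2 ratio 1.28). Of 13 cortical epithelial marker genes, 13 passed the filter, led by the chemokine gene Ccl25 (12.64 in Tg, 12.58 in non-Tg) and the keratin gene Krt8 (12.62 and 12.57). Their mean level was 10.22 in Tg against 10.06 in non-Tg, with 13 ratios above 0 and a median of 0.14. Thymocyte genes were found too, at uneven levels. Of 14 measured markers, 13 passed, with mean levels over these 13 of 8.05 on the Tg array against 8.07 on the other. Their median ratio was -0.01, with 5 ratios above 0 and 8 below. The most abundant was Rag1, the recombinase gene of developing lymphocytes, at 10.89 and 10.96. Cd3g followed, at 9.94 and 10.23, a log2 ratio of -0.28. Rag2 was the marker below the filter, at 5.11 and 5.34. Ptcra (5.67 and 5.68) and Zap70 (5.70 and 5.36) lay close to it. A list of genes that mark dividing or just-divided thymocytes had mean levels of 7.15 in Tg against 7.31 in non-Tg, with 6 of 7 ratios below 0 and a median of -0.15. Its most abundant members were Cd24a, at 10.45 and 10.64, and the transcription factor gene Myb, at 8.0 and 8.28. The lowest ratio there was that of the transferrin receptor gene Tfrc, at -0.71. The other ratios below 0 lay within the SD of 0.302 of a single probe set. Above 0 lay Il2ra, at 6.90 and 6.48, a log2 ratio of 0.41. Median log2 ratios over all measured genes were -0.02 for 8 medullary epithelial genes, 0.05 for 15 myeloid, 0 for 5 B cell, 0.04 for 8 fibroblast, 0.11 for 6 endothelial and 0.01 for 2 erythroid genes. Over those past the filter they were 0.01 for 7, -0.14 for 4, -0.20 for 2, 0.20 for 5, 0.11 for 6 and -0.13 for 1 gene, in the same order, so the sign for medullary, myeloid and erythroid genes turned with the filter. In such bulk RNA, fewer cells of a type and less RNA per cell cannot be told apart, and the part of thymocytes in the cell cycle values was not tested.

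The cell cycle genes as a whole had nearly the same levels on both arrays. All 47 measured members passed the filter, against 11422 of 19938 genes overall. Their log2 ratios had a median of 0, the same value as Brca1, with 23 above 0 and 23 below, while all genes past the filter had a median of 0.0058 and 50.6% above 0. The interquartile range was -0.15 to 0.18 for the members and -0.17 to 0.20 for all genes past the filter. Of the 47, 36 (76.6%) lay within 0.302 of 0, against 70.3% of genes past the filter. The proliferation marker Mki67, the gene of the Ki-67 antigen of cycling cells, had 7.15 in Tg against 7.26 in non-Tg. Top2a, the topoisomerase that untangles sister chromatids, had 8.70 and 8.69, and its second probe set lay under the floor on both arrays. Some signs turned under other scalings of the arrays, all of them of ratios no further than 0.036 from 0.

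**Figure D1:**
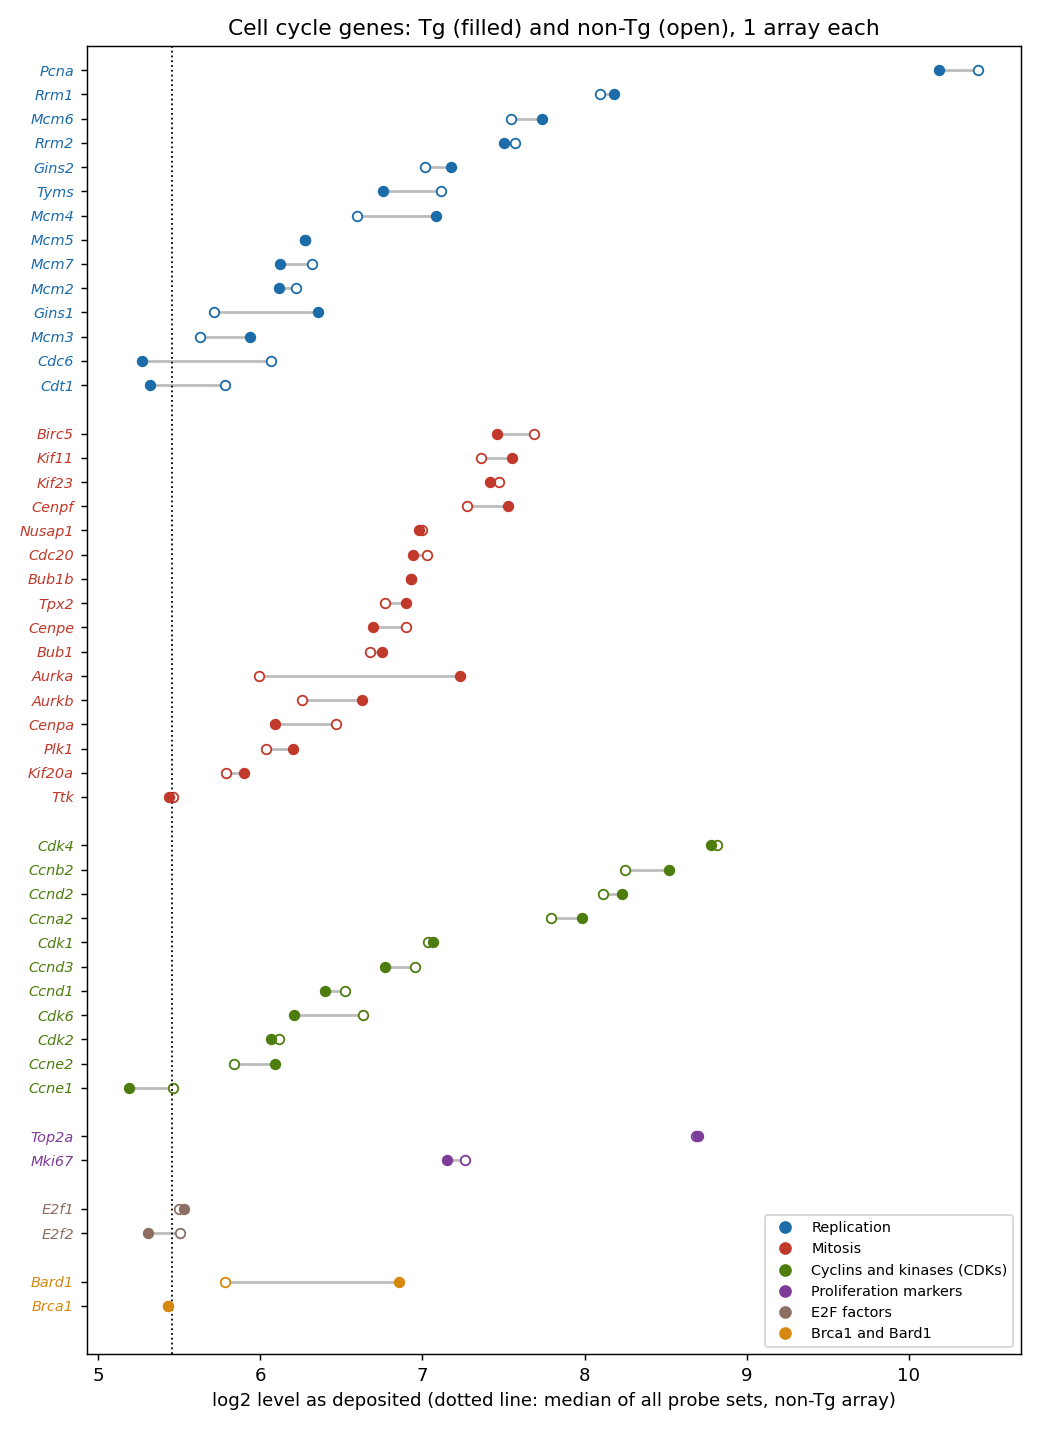
Log2 level as deposited of each of the 47 measured cell cycle genes (horizontal axis, 1 row per gene, grouped by role), with filled points for the Tg array and open points for the non-Tg array. Most pairs of points nearly coincide, and the widest gaps are those of Aurka (7.23 and 5.99), Bard1 (6.85 and 5.79), Cdc6 (5.27 and 6.07) and Gins1 (6.36 and 5.72).

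A fold of 2 or more was reached by 2 members, both higher on the Tg array, and by 0 members in the other direction. Among all genes past the filter, 1.17% were 2-fold apart, 0.797% higher and 0.376% lower in Tg. At 1.5-fold there were 4 members, 3 higher and 1 lower, against a background of 7.86% (4.74% higher and 3.13% lower). With 2 and 4 of 47 genes, the members' shares rest on too few genes for a comparison with these backgrounds.

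Aurka encodes Aurora A, the kinase that matures centrosomes and builds the spindle poles. The Tg array gave 7.23 and the non-Tg array 5.99. The log2 ratio of 1.24, 2.36-fold, was reached or passed by 29 of the 11422 genes past the filter, Aurka included, and the 500 genes nearest to it in level had ratios with an SD of 0.349. Aurka has 1 probe set on this array, so no second reading of the gene was available. Tpx2, the microtubule protein that activates Aurora A and carries it to the spindle, had 6.90 and 6.77, a log2 ratio of 0.13. Aurkb, the closely related Aurora B of the centromere, had 6.63 and 6.26, a log2 ratio of 0.37. Neither came near the ratio of Aurka.

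Bard1 encodes the partner that BRCA1 needs to act as a ubiquitin ligase in DNA repair. Its brightest probe set had 6.85 on the Tg array and 5.79 on the other, for a log2 ratio of 1.07 or 2.10-fold, reached or passed by 61 genes. The gene has 3 probe sets, and the other 2 gave log2 ratios of 0.43 (5.48 in Tg, 5.05 in non-Tg) and 0.16 (5.31 and 5.14, below the filter). All lay above 0, but averaged over the 3 the ratio was 0.55 and no longer 2-fold. Brca1 itself had exactly the same deposited value on both arrays, 5.43, which passed the filter by a margin in the fourth decimal on the Tg array and lay below it on the non-Tg array.

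The promoters of these 2 genes are shown because they are the members beyond 2-fold. Each window runs from 250 bases before to 50 bases after the transcription start in RefSeq (GRCm38.p6), in the direction of the gene. Capitals mark every match, on either strand, to the forms of the cell cycle homology region bound by DREAM and B-MYB with FOXM1 (TTTGAA or TTTAAA), of an E2F site (the form TTCCCGC, the form TTGGCGC, the form TTCGCGC and the form TTGCCGC) and of the NF-Y box (CCAAT).
Aurka, chr2:172370521-172370820, minus strand: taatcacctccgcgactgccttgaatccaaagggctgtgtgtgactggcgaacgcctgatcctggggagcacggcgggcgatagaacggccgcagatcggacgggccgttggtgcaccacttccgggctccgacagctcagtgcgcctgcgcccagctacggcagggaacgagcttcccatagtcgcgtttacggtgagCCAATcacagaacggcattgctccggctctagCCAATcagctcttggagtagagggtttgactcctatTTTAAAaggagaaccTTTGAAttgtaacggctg
Bard1, chr1:71102923-71103222, minus strand: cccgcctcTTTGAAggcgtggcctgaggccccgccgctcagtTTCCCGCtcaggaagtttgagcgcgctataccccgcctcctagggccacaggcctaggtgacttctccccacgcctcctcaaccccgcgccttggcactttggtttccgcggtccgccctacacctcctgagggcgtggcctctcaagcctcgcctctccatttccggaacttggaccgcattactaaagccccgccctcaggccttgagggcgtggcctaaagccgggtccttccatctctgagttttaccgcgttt
In the Aurka window, the CCAAT boxes at positions 200 and 232 are followed by TTTAAA at position 268 and TTTGAA at position 283, counted from the 5′ end of the window, and no E2F form was found. The Bard1 window holds TTTGAA at position 9 and TTCCCGC at position 43, and no CCAAT.

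Replication genes spread to both sides of 0. Of 14, 6 had log2 ratios above 0 and 8 below, with a median of -0.04 and a range from -0.80 to 0.64. Cdc6 and Cdt1 were lower on the Tg array. Cdc6, which loads the MCM helicase onto origins, had 5.27 on the Tg array and 6.07 on the other, for a log2 ratio of -0.80 or 1.74-fold. A ratio as low or lower was found in 115 of the 11422 genes past the filter, Cdc6 included. The 500 genes nearest to Cdc6 in level had ratios with an SD of 0.278. Cdt1, the co-loader of Cdc6, had 5.32 and 5.78, a log2 ratio of -0.46. Both Tg values lay below the array's median.

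The 6 subunits of the MCM2-7 helicase ring, which unwinds DNA ahead of the fork, did not share a direction. Mcm4 had the highest ratio, 0.48, with 7.08 in Tg against 6.60 in non-Tg. Mcm3 (5.94 and 5.63) had a log2 ratio of 0.31 and Mcm6 (7.74 and 7.54) one of 0.19. Mcm5 was level on both arrays, at 6.28. Mcm2 (6.12 and 6.22) had a log2 ratio of -0.10 and Mcm7 (6.12 and 6.32) one of -0.20. Although these proteins assemble in equal numbers, their probe sets covered a range from -0.20 to 0.48.

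GINS, the complex that joins the MCM ring to form the active helicase, had Gins1 at 6.36 on the Tg array and 5.72 on the other, for a log2 ratio of 0.64 or 1.56-fold, the highest among the replication genes. Gins2 had 7.18 and 7.02, a log2 ratio of 0.16. From the longer list of origin genes, Gins3 had a ratio of 0.05 and Gins4 one of 0.38. The 4 subunits thus lay above 0, but Gins2 and Gins3 within the SD of 0.302 of a single probe set.

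Pcna, the sliding clamp that holds polymerases on DNA, was the brightest member, at 10.19 on the Tg array and 10.43 on the other, for a log2 ratio of -0.24. Its second probe set read 10.19 and 10.43 as well. For nucleotide supply, the ribonucleotide reductase subunits were nearly level: Rrm1 had 8.18 and 8.10, a log2 ratio of 0.08. Rrm2, the subunit that is made in S phase, had 7.50 and 7.57, a log2 ratio of -0.07. Tyms, the thymidylate synthase gene, was the lowest of the 3, at 6.76 and 7.11 with a log2 ratio of -0.36.

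The Pcna window is shown as that of the brightest replication gene with an entry, and the Mcm6 window, chosen after the matches were seen, as the member with the most E2F forms.
Pcna, chr2:132253131-132253430, minus strand: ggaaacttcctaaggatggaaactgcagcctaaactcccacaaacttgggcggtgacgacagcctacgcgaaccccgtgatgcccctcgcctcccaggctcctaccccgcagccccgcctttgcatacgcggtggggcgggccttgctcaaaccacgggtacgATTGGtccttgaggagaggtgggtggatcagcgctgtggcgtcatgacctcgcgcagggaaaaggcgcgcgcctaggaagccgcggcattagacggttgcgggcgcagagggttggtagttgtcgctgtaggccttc
Mcm6, chr1:128359656-128359955, minus strand: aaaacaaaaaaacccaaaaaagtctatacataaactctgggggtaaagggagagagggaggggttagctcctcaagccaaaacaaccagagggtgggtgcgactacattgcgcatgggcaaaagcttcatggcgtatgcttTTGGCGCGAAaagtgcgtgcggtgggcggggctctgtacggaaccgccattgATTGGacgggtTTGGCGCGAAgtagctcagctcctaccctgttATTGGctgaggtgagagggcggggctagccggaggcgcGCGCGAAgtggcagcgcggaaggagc
The Mcm6 window holds 5 E2F matches, at positions 142, 145, 205, 208 and 275. The first 4 form overlapping pairs that read as an E2F form on each strand. The Pcna window holds a CCAAT box on the opposite strand at position 164 and none of the other forms.

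Mitosis genes, Aurka apart, had log2 ratios from -0.37 to 0.37. Of 16, 9 had log2 ratios above 0 and 7 below, with a median of 0.04. The SD of the ratios was 0.358, against 0.381 over the 14 replication genes and 0.331 over all genes past the filter. Over the 15 mitosis genes without Aurka it was 0.195. Leaving out the widest ratio lowers an SD by construction. The other groups kept theirs, so 0.195 is not compared with them. Plk1, the Polo-like kinase that drives mitotic entry, had 6.20 on the Tg array and 6.04 on the other, for a log2 ratio of 0.17.

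The genes of the spindle checkpoint, which delays chromosome separation until every kinetochore is attached, differed by little. Bub1 had 6.75 on the Tg array and 6.68 on the other, for a log2 ratio of 0.07. Bub1b, the gene of BUBR1, had 6.93 on both arrays. Ttk, the MPS1 kinase at the top of the checkpoint, had 5.44 and 5.46, just above the filter. Cdc20, the activator of the anaphase-promoting complex that the checkpoint restrains, had 6.94 and 7.03, a log2 ratio of -0.08.

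At the centromere the values were more mixed. Cenpa, the histone H3 variant that marks centromeres, was lower on the Tg array, at 6.09 against 6.47, a log2 ratio of -0.37. Cenpe, a kinetochore motor, had 6.70 and 6.90, a log2 ratio of -0.20. Cenpf, a large kinetochore protein made in G2, had 7.53 and 7.28, a log2 ratio of 0.25. Birc5, the survivin subunit of the chromosomal passenger complex, had 7.46 and 7.69, a log2 ratio of -0.23. The other passenger genes split as well, with Aurkb at 0.37 and Cdca8 (borealin) at 0.27 on one side and Incenp, the scaffold, at -0.21 on the other.

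The spindle motors and binders were nearly level. Kif11, the motor that pushes spindle poles apart, had 7.55 on the Tg array and 7.36 on the other, for a log2 ratio of 0.19. Kif20a, a kinesin of cytokinesis, had 5.90 and 5.79, a log2 ratio of 0.11. Kif23, the kinesin of the central spindle, had 7.42 and 7.47, a log2 ratio of -0.06. Nusap1, a microtubule binder of the spindle, had 6.98 and 7.00, a log2 ratio of -0.02. Of these 4 genes, none reached the SD of 0.302 of a single probe set.

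The Birc5 window is shown as that of the brightest mitosis gene with an entry, and the Plk1 window, chosen after the matches were seen, as the member with the most cell cycle homology region forms.
Birc5, chr11:117848987-117849286, plus strand: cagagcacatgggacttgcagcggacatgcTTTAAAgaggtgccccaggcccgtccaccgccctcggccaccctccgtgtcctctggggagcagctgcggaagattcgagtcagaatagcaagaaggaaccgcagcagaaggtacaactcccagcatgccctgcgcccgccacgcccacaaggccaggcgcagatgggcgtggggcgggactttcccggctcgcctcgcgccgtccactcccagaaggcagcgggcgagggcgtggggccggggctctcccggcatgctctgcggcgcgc
Plk1, chr7:122159185-122159484, plus strand: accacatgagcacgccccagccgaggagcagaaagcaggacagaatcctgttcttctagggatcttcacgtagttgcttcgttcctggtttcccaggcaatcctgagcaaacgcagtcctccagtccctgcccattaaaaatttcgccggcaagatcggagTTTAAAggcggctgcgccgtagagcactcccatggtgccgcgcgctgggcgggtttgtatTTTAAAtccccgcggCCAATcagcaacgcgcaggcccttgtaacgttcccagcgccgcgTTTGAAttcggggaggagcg
The Plk1 window has TTTAAA at positions 162 and 222, a CCAAT box at position 237 and TTTGAA at position 281. TTTGAA follows CCAAT here and in the Aurka window, but TTTAAA comes before CCAAT in Plk1 and after it in Aurka. The Birc5 window has TTTAAA at position 31 and neither of the other forms.

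Replication and mitosis genes did not separate on this pair of arrays. The median log2 ratio was -0.04 over 14 replication genes and 0.04 over 16 mitosis genes, a difference of -0.07, and -0.04 with Aurka left out. With the filter at the 75th percentile the difference changed sign, to 0.04. Median levels were 6.56 in Tg against 6.46 in non-Tg for replication and 6.92 and 6.83 for mitosis. The non-Tg level reached the array's upper quartile, 6.55, in 7 of 14 replication genes, in 10 of 16 mitosis genes and in 45.1% of all genes past the filter. Levels of different probe sets also depend on the probes, so no order between the groups is drawn from them. In Tg, replication levels ran from 5.27 to 10.19 and mitosis levels from 5.44 to 7.55.

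**Figure D2:**
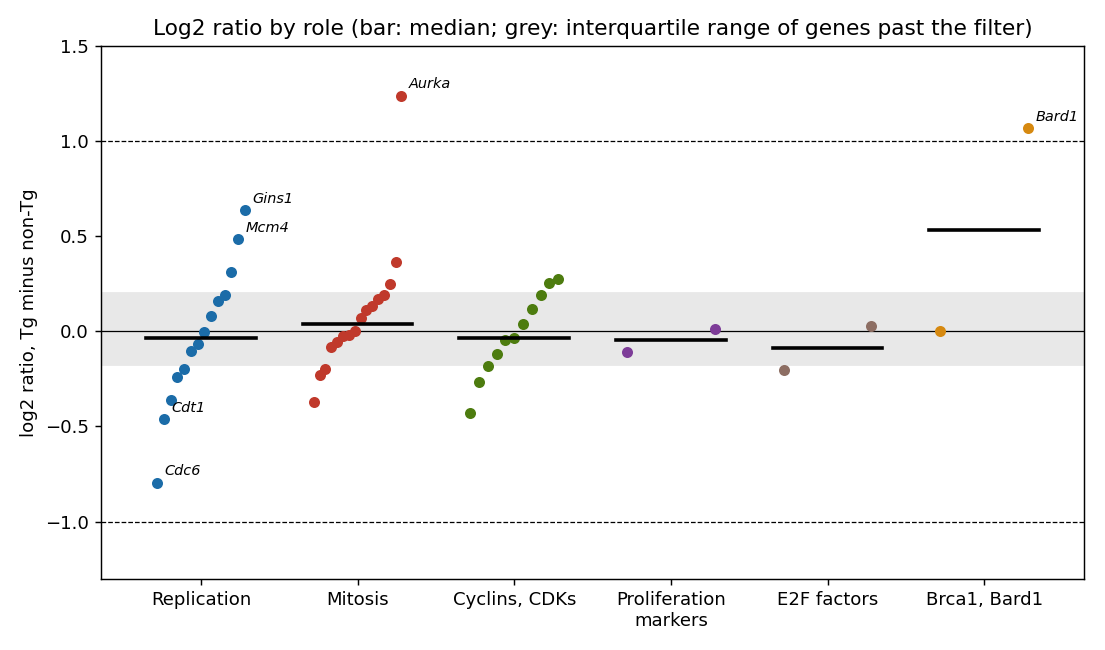
Log2 ratio (vertical axis, Tg minus non-Tg) of the 47 measured members by role, 1 point per gene, with a black bar for the median of each group, a grey band for the interquartile range of all genes past the filter (-0.17 to 0.20) and dashed lines at 2-fold. The medians of replication (-0.04) and mitosis (0.04) both lie in the band, and only Aurka and Bard1 lie past a dashed line.

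Cyclins and their kinases were all less than 1.5-fold apart. Of 11 measured genes, 5 had log2 ratios above 0 and 6 below, with a range from -0.43 to 0.28. Among the D-type cyclins, which link growth signals to G1, Ccnd1 had 6.40 on the Tg array and 6.52 on the other, for a log2 ratio of -0.12. Ccnd2 had 8.23 and 8.11, a log2 ratio of 0.12. Ccnd3, the D cyclin that early thymocytes need to expand, had 6.77 and 6.95, a log2 ratio of -0.18. Their kinase genes Cdk4 (8.78 and 8.82) and Cdk6 (6.21 and 6.63) had log2 ratios of -0.04 and -0.43, the latter the lowest of the group.

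The E-type cyclins of S phase entry had ratios of opposite sign, neither beyond the SD of 0.302 of a single probe set. Ccne1 had 5.19 on the Tg array and 5.46 on the other, for a log2 ratio of -0.27 close to the filter. With the floor at the 50th percentile the Ccne1 ratio became -0.02. Ccne2 had 6.09 and 5.84, a log2 ratio of 0.25. Their kinase gene Cdk2 was nearly level, at 6.07 and 6.11. The cyclins of S phase and mitosis were slightly higher on the Tg array: Ccna2 had 7.98 and 7.79, a log2 ratio of 0.19. Ccnb2 had 8.52 and 8.25, a log2 ratio of 0.28. Cdk1, the kinase they activate, had 7.07 and 7.03, a log2 ratio of 0.04.

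The E2F activators were dim. E2f1 had 5.53 in Tg against 5.50 in non-Tg, and E2f2 had 5.31 and 5.51, a log2 ratio of -0.20.

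**Figure D3:**
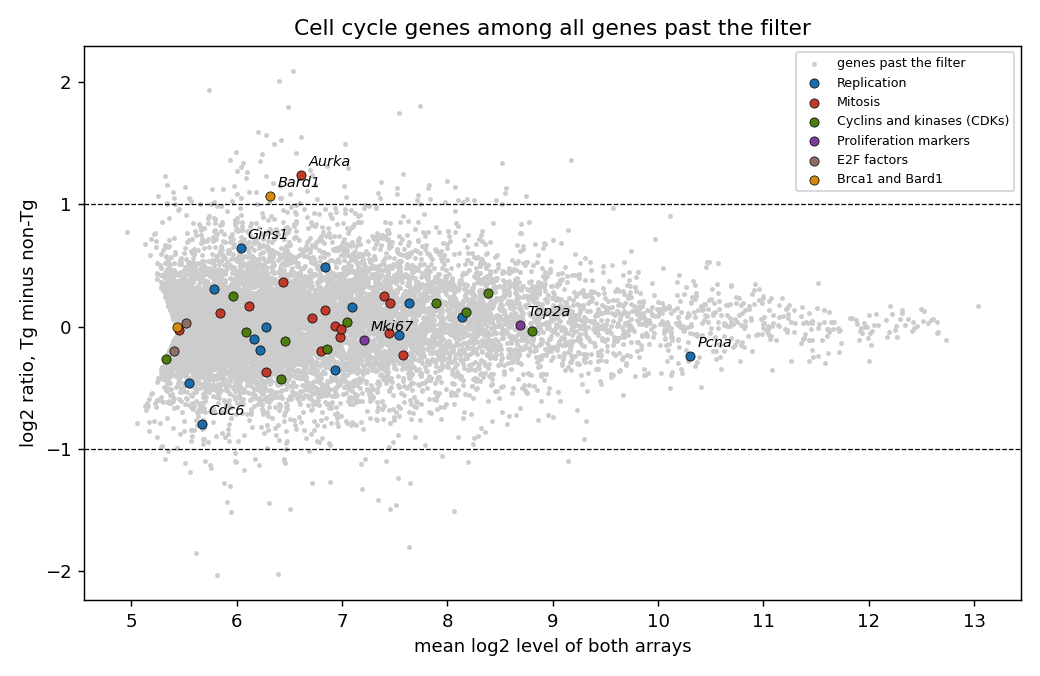
Log2 ratio (vertical axis, Tg minus non-Tg) against the mean log2 level of both arrays (horizontal axis) for the 11422 genes past the filter in grey and the 47 members in colour by role, with dashed lines at 2-fold. Aurka (1.24) and Bard1 (1.07) lie at the upper edge of the grey cloud, and Cdc6 (-0.80) lies towards its lower edge. The other members, Pcna the brightest, lie within the cloud.

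The promoters of replication and mitosis genes held the searched motifs in different shares. Of the 48 members, 38 had an entry in the promoter table. A form of the cell cycle homology region was found in 11 of 13 mitosis genes (84.6%) and in 3 of 11 replication genes (27.3%), against 22.0% of 9138 genes past the filter that had an entry and 30.6% of all 27025 genes in the table. An E2F form was found in 8 of 11 replication genes (72.7%) and in 0 of 13 mitosis genes, against 18.9% of genes past the filter and 10.9% of all. The NF-Y box was found in 11 of 13 mitosis genes and 8 of 11 replication genes, against 42.0% and 41.1%. A homology region form together with a CCAAT box was found in 10 of 13 mitosis genes, 3 of 11 replication genes and 10.2% of genes past the filter. Matches are descriptions of letters and not bound sites. The windows of replication and mitosis genes had median G and C contents of 57.7% and 58.7%, against 62.0% for genes past the filter.

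Among the cyclins and kinases with an entry, Ccnb2, Ccnb1 and Cdk1 held both a homology region form and CCAAT, and Cdk1 also held 2 E2F forms and Ccnb1 1. Cdk2 held 3 E2F forms and no homology region form. Top2a held 6 CCAAT boxes and 2 homology region forms.

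Ratios of members with and without each motif overlapped. The 22 members with a homology region form included Ccnb1, and the 21 of them with a value had a median ratio of -0.02, against -0.04 in the 16 without. The median was -0.03 in members with an E2F form and -0.04 in those without. For the CCAAT box it was -0.0025 in the 27 members that hold it and have a value (range -0.37 to 1.24) and -0.25 in the 10 without (range -0.80 to 1.07). These medians are descriptions of 2 arrays, with no test.

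**Figure D4:**
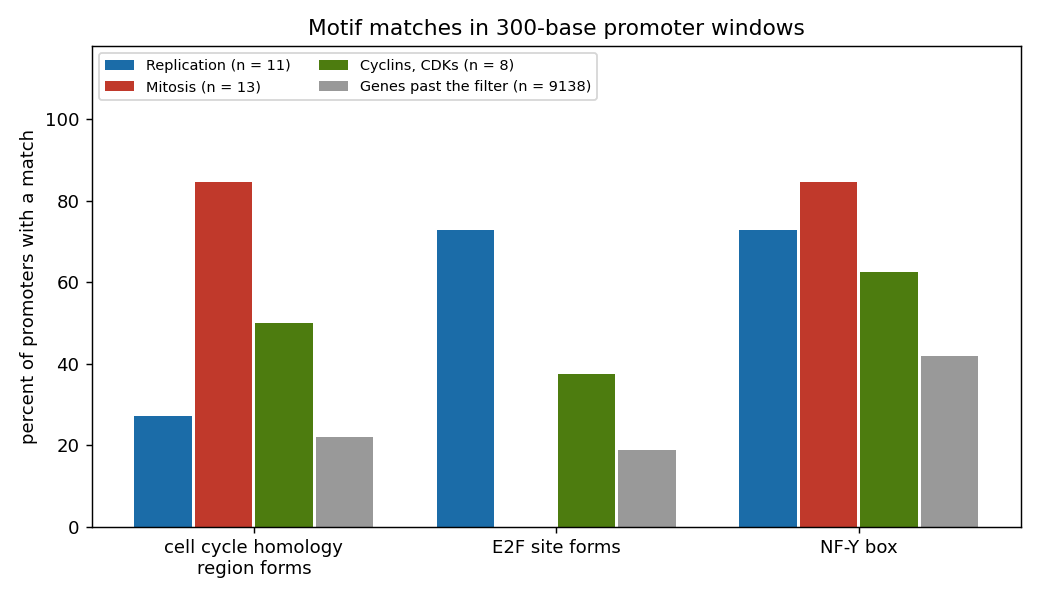
Percent of promoter windows with at least 1 match (vertical axis) for 3 kinds of motif, in replication genes (n = 11), mitosis genes (n = 13), cyclins and kinases (n = 8) and all genes past the filter with an entry (n = 9138). Homology region forms are most frequent in mitosis genes (84.6%) and E2F forms in replication genes (72.7%), with 0 in mitosis genes.

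Other genes of the cell cycle, from 8 further lists, had a median log2 ratio near 0, and 1 of them was 2-fold apart. Of 119 listed genes, 115 were measured and 104 passed the filter. Of these, 1 was 2-fold higher and 0 were 2-fold lower, against the background of 1.17%, and the median log2 ratio was 0.02. At 1.5-fold, 7 were higher and 5 lower, against 4.74% and 3.13% of all genes past the filter. The gene beyond 2-fold was Pold3, a subunit of the lagging-strand polymerase delta, at 6.95 in Tg against 5.90 in non-Tg (log2 ratio 1.05, 2.07-fold).

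The other genes of the replication fork lay mostly below 0, with 14 of 20 ratios below 0 and a median of -0.13 (-0.11 over the 21 measured). Above 0 lay 25% of them, against 50.6% of all genes past the filter. Most of the ratios below 0 were within the SD of 0.302 of a single probe set. Prim1, the catalytic primase subunit, had 6.27 on the Tg array and 7.14 on the other, for a log2 ratio of -0.88. Fen1, the flap nuclease that matures Okazaki fragments, had 5.92 and 6.56, a log2 ratio of -0.64. Origin licensing and firing genes from the further lists lay mostly above 0, with 10 of 12 ratios (83.3%) above 0. Their median was 0.31 (0.26 over the 15 measured). The exceptions in this list were Dbf4 and Orc6. Dbf4, the activator of the CDC7 kinase, had 5.95 and 6.78, a log2 ratio of -0.83. Orc6, the smallest origin recognition subunit, had 6.34 and 7.12, a log2 ratio of -0.78. The list leaves out the members of the same process. Of those, Cdc6 and Cdt1 lay below 0, the MCM genes on both sides, and Gins1 and Gins2 above. Orc2 had 7.14 and 6.42, a log2 ratio of 0.72, and Cdc45, the third part of the active helicase beside MCM and GINS, had 6.70 and 6.12, a log2 ratio of 0.57. Subunits of the origin recognition complex thus lay on both sides of 0. Prim1, Fen1, Orc2, Cdc45, the GINS and the passenger genes were named after their values were seen. Whether fork and origin genes differ was not tested.

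Regulators of Aurora A had a median ratio of 0.03 over the 9 measured genes, with 5 above 0 and 4 below. Over the 8 past the filter, which leaves out Bora at -0.27, the median was 0.23. Ajuba, a LIM protein that promotes Aurora A activation, had 7.20 on the Tg array and 6.43 on the other, for a log2 ratio of 0.78. Cep192, the centrosome scaffold that recruits Aurora A, had 7.10 and 6.41, a log2 ratio of 0.69 that became 0.32 when its 3 probe sets were averaged. This list was drawn up with the Aurka value known.

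The Rb, E2F and DREAM list had a median of 0.08 over the 16 genes past the filter, 11 above 0. Over the 17 measured, which include E2f5 at -0.32, the median was 0.06. Foxm1, the activator of mitotic genes, had 6.50 on the Tg array and 5.72 on the other, for a log2 ratio of 0.78. Lin37, a DREAM subunit, had 6.74 and 6.23, a log2 ratio of 0.52. Among the inhibitors of cyclin-dependent kinases, with a median of 0.02 over 5 genes, the p57 gene Cdkn1c had 5.99 and 6.57, a log2 ratio of -0.58. The p27 gene Cdkn1b had 8.72 and 8.24, a log2 ratio of 0.48 that turned to -0.08 when its probe sets were averaged. Of the inhibitors past the filter, 0 were 1.5-fold apart, Cdkn1c by a small margin.

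Genes of mitotic entry and the checkpoint had a median of 0.02 over 12 genes, with Cdc25a, the phosphatase that activates the kinases, at 6.27 in Tg against 5.94 in non-Tg (log2 ratio 0.32) and Bub3 at 6.86 and 7.15 (log2 ratio -0.28). Kinetochore and passenger genes had a median of -0.03 over 13 genes. Sgo2a, a shugoshin that protects centromeric cohesion, had 6.60 and 5.76, a log2 ratio of 0.84, and Spc24, a subunit of the NDC80 complex, had 5.99 and 6.80, a log2 ratio of -0.81. Spindle, cytokinesis and condensin genes had a median of -0.0040 over 18 genes, with 9 on each side of 0. Racgap1, the GTPase activator of the central spindle, had 6.95 and 6.33, a log2 ratio of 0.62, and the kinesin gene Kif18a had 5.51 and 6.0, a log2 ratio of -0.49.

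**Figure D5:**
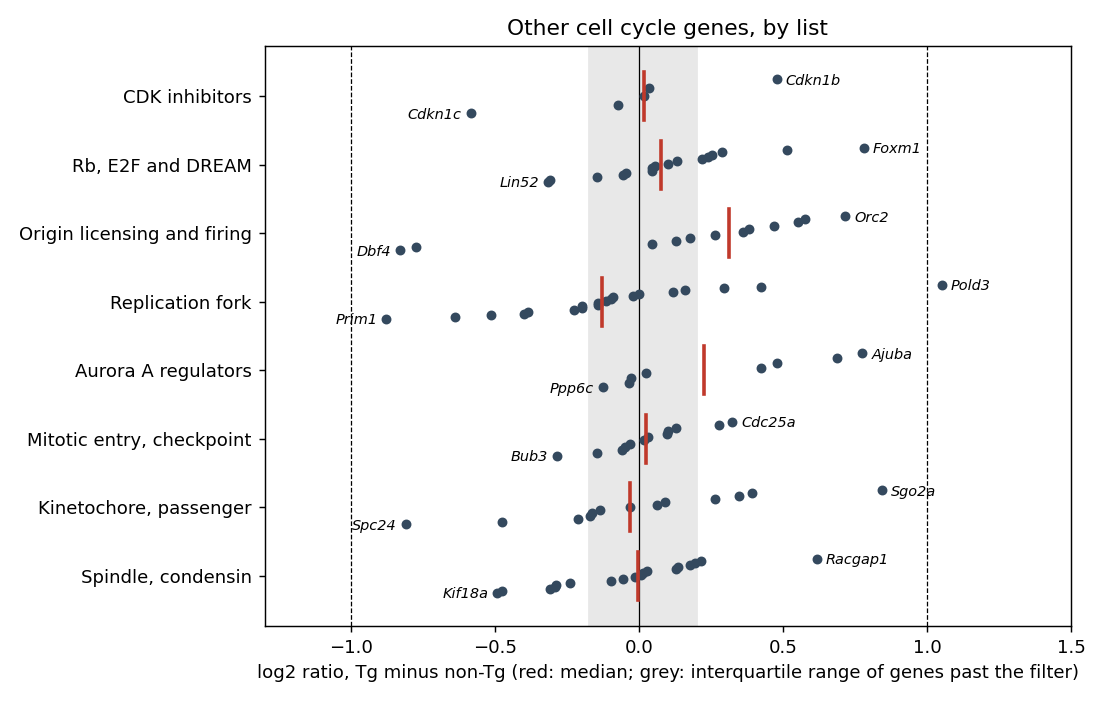
Log2 ratio (horizontal axis, Tg minus non-Tg) of the 104 genes past the filter in 8 further cell cycle lists, 1 point per gene, with a red bar for each median, a grey band for the interquartile range of all genes past the filter and dashed lines at 2-fold. The extremes of each list are named, and only Pold3 (1.05) lies past a dashed line.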

How the data were processed

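The authors' table gives each of 28856 probe sets a value on either array. The log2 scale was inferred from the deposited values, which run from 4.22 to 13.7 in Tg and from 4.22 to 13.6 in non-Tg. The steps behind background correction, normalization and summarisation, not given in the sources used here, could shift the levels. By the labels' protocols, 400 pg of total RNA was amplified and 5.5 µg of cDNA was labelled, so scarce transcripts may be sampled unevenly. No scanner files or scan dates were used here. Signal over background is unknown, and the number of arrays limits the precision.

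Probe sets were named through GEO's annotation of the platform: 21789 had 1 symbol, 1621 several and 5446 none here. Promoter windows were those of RefSeq. The members, their classes and the 17 other gene lists were chosen with earlier results of these data known. All members were named. Of each pathway list, genes 2-fold apart were named, or else the 2 with the widest ratio past the filter. Of the cortical, medullary, thymocyte and dividing thymocyte marker lists, the 2 most abundant genes were named, and of the other marker lists none. Others, such as Tfrc, Il2ra, Rag2, Ptcra and Zap70, were named after their values were seen. A rule of size, 2-fold and past the filter, replaced a test. Python 3.11.15, numpy 2.4.6, pandas 2.3.3, statsmodels 0.14.6 and matplotlib 3.10.9 were used. Alternatives covered the floor, filter, probe set choice, scaling, fold and class boundaries.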

Additional observations from a re-analysis of the deposited data

How the results depend on the processing

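The count of 2 members 2-fold apart (Aurka and Bard1) was 1 (Aurka) when all probe sets of a gene were averaged, since the Bard1 ratio became 0.55, and 4 (with Cdc6 and Gins1) at a 1.5-fold threshold. It was 2 with no floor, a floor at the 50th percentile, median centring, quantile normalization, loess, no filter and a filter at the 75th percentile. The difference between the replication and mitosis medians was 0.045 with the filter at the 75th percentile in place of -0.07; fewer genes were then compared. Among 282 ratios of single members under the 6 alternatives of floor, probe set and scaling, 8 changed sign, and 1 moved by more than 0.302, that of Bard1. The counts above and below 0 were 21 and 26 after quantile normalization and 24 and 23 after loess. Leaving out Aurka was added after seeing the data. No paired analysis was possible because each group had 1 array. Low levels limit what could be seen for dim genes such as E2f1, E2f2, Ccne1 and Brca1.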

Other observations

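Of the 28856 probe sets, 809 had exactly the same deposited value on both arrays, that of Brca1 among them. The 2 probe sets annotated to Pcna differed from each other only in the fourth decimal on both arrays, so they were not read as separate support for the Pcna ratio. The pair was not removed from the 658 genes behind the SD of 0.302, and nearly identical pairs make that SD smaller. Another 2 probe sets annotated to Top2a together with Hibadh, which entered no comparison, had levels of 4.78 and 5.05 in Tg and 4.54 and 4.68 in non-Tg.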
